A study of Cavia porcellus with 8 samples.

Results

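A group of 9 genes, of 13269 array features, was examined whose signal was lower in the guinea pig cochlea after insertion of a normal electrode. They were TAC2 (feature Z50784), GPM4 (AY072061), PrRPR (AY572193), KCNH2 (EF204534), ngb (AJ781213), sca1 (AJ438474), PRM1 (M83896), sperad-4 (AF180149) and sperad-7 (AF180148). The genes were selected on their signals in these same arrays, as those of the study's list with an average at or near 2-fold or more lower with the normal electrode than without surgery, and each was matched to the single feature whose group averages equal the printed ones. Gene names are therefore those of the study, and features are GenBank accessions.

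Whole cochleae of male Hartley guinea pigs were compared in 3 groups, with 1 array per animal. The NOR group (3 animals) carried a silicone dummy electrode without wires or contacts, and the DEX group (3 animals) carried the same kind of electrode with dexamethasone, a synthetic glucocorticoid, mixed into the silicone. The CNT group (2 animals) had no surgery. The sample labels give the animals as 8 weeks old, the protocol as 7 weeks, and electrodes were inserted through a hole near the round window and stayed in place for 7 days. There was no group operated on without an electrode, so that surgery and electrode cannot be told apart. In RNA of a whole cochlea, fewer cells of a type and less RNA per cell cannot be told apart either. Markers of hair cells, supporting cells or spiral ganglion neurons could not be looked up, because 0 of the features could be named through the gene table used here.

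The arrays fell into 2 sets that the labels do not name. Array set A held NOR and DEX replicates 1 and 2. Array set B held NOR and DEX replicate 3 and both CNT animals. Any 2 arrays of a set had between 246 and 384 signal values in common (exactly equal as deposited, with up to 4 decimals, at any feature), against 30 to 52 for arrays of different sets, and quartiles differed by up to 0.39 on the log2 scale between arrays. Signals were therefore quantile-normalized across the 8 arrays, and all values below are these normalized linear signals or their log2 differences unless stated otherwise. As every CNT array lay in set B, each comparison with CNT is given within set B as well.

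Most of the 9 genes belong to neural signalling or to sperm. Beta preprotachykinin I, the function printed for TAC2, is the precursor of substance P and neurokinin A, tachykinin peptides released by sensory nerve fibers. The symbol TAC2 is that of the study, and symbol and printed function were not checked against each other by sequence. GPM4 is the muscarinic acetylcholine receptor 4, an inhibitory receptor coupled to a G protein, and PrRPR is a receptor-like protein for prolactin-releasing peptide. KCNH2 forms a voltage-gated potassium channel that repolarizes excitable cells. The product of ngb, neuroglobin, is an oxygen-binding globin of neurons, and sca1 encodes ataxin-1, the nuclear protein altered in spinocerebellar ataxia type 1. PRM1, protamine 1, packs DNA in the sperm nucleus, and the sperad transcripts were described from guinea pig sperm.

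**Figure D1:**
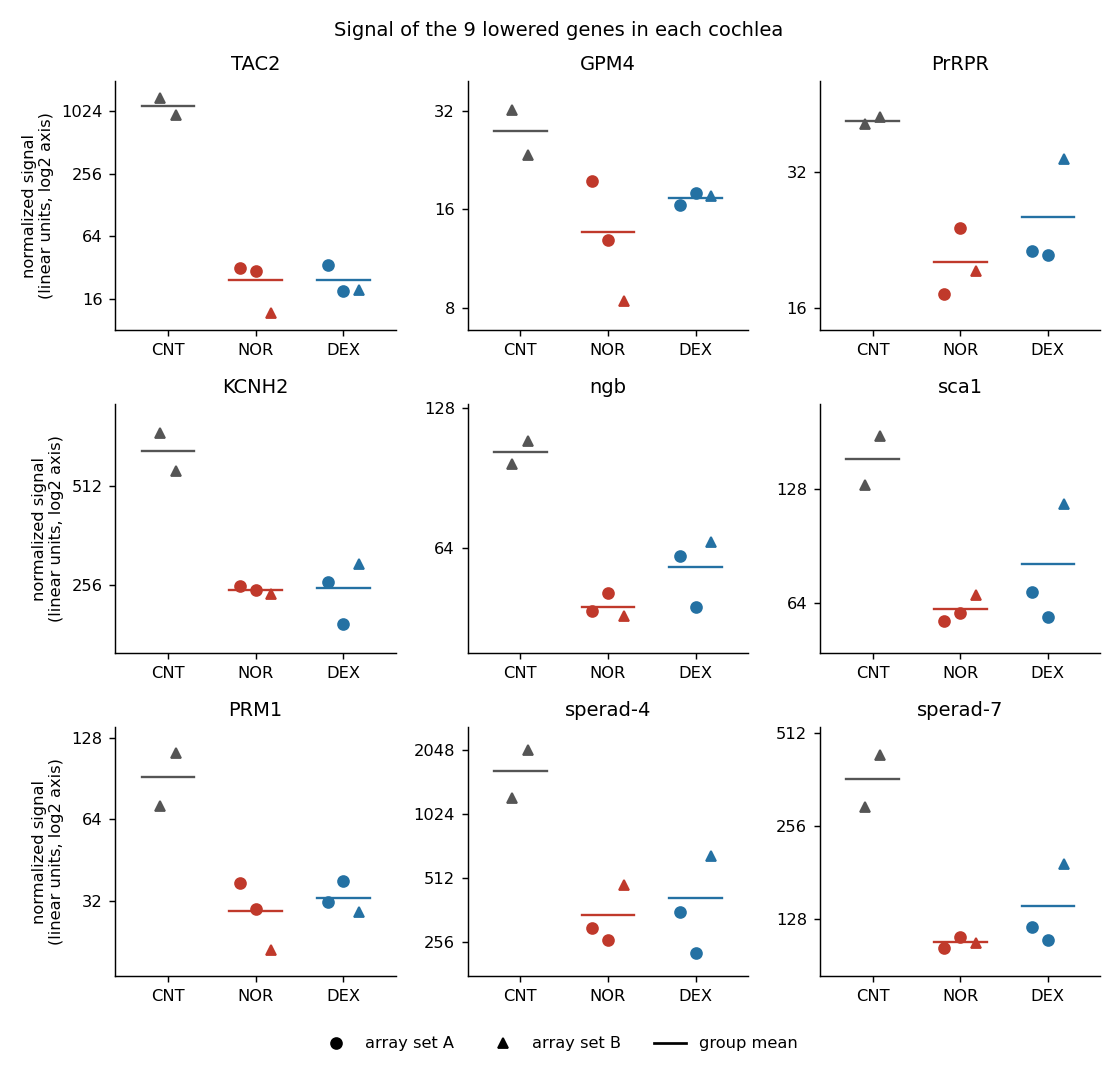
Normalized signal of each gene in every cochlea (linear units on a log2 axis), by group, with circles for array set A, triangles for array set B and a line at the group mean. In each of the 9 genes both CNT animals lie above all 6 implanted animals, and the NOR and DEX animals overlap.

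TAC2 stood apart from the other genes. Its signal was 1367 and 937 in the 2 CNT animals, 31.5, 29.4 and 11.6 in NOR replicates 1 to 3, and 33.6, 19.2 and 19.6 in DEX replicates 1 to 3. The lower of the CNT animals was 29.7-fold above the highest NOR animal and 27.8-fold above the highest DEX animal. In brightness on the deposited arrays, the feature exceeded 65.7% and 60.7% of all features in the CNT animals but only between 6.26% and 26.7% in the implanted animals. The tachykinin precursor was thus among the dim features of every implanted cochlea, whichever electrode it held.

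The 2 receptor genes were dim throughout. GPM4 had signals of 32.0 and 23.4 in CNT, 19.5, 12.9 and 8.42 in NOR, and 16.5, 17.9 and 17.6 in DEX. The DEX animals were close together, with an SD of 0.06 on the log2 scale against 0.61 in NOR, and all 3 lay within the range of the NOR animals. The signal of PrRPR was 40.8 and 42.2 in CNT, 17.2, 24.0 and 19.3 in NOR, and 21.3, 20.9 and 34.1 in DEX. Here DEX replicate 3 lay above every other implanted animal and nearest to CNT.

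KCNH2 had the steadiest NOR signals of the list, at 256, 247 and 241, against 739 and 569 in CNT. The DEX animals were at 261, 196 and 297, on both sides of the NOR animals. For ngb the signals were 97.0 and 109 in CNT, 46.8, 51.1 and 45.5 in NOR, and 61.3, 47.6 and 65.8 in DEX. Neuroglobin was thus above all NOR animals in DEX replicates 1 and 3 but not in replicate 2. The signal of sca1 was 131 and 176 in CNT, 57.5, 60.3 and 67.5 in NOR, and 68.5, 58.8 and 116 in DEX, so that DEX replicate 3 came closer to the lower CNT animal than to the other DEX animals.

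The sperm genes differed in brightness, and in each of them both CNT animals lay above all implanted animals. PRM1 had 71.4 and 112 in CNT, 37.2, 29.7 and 21.0 in NOR, and 31.7, 37.8 and 29.0 in DEX. The signal of sperad-4 was 1222 and 2050 in CNT, 295, 261 and 471 in NOR, and 354, 225 and 646 in DEX. That of sperad-7 was 294 and 433 in CNT, 103, 112 and 107 in NOR, and 121, 109 and 193 in DEX. In both sperad features DEX replicate 3 was the highest of the implanted animals, while in PRM1 it was the lowest of the DEX animals.

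The difference between NOR and CNT chose the genes and is given as a description without a test. It ran from a log2 fold change of -5.68 in TAC2 (51.3-fold lower, SE 0.45) to -1.06 in PrRPR (2.08-fold lower, SE 0.24). In between lay sperad-4 at -2.26, sperad-7 at -1.73, PRM1 at -1.65, KCNH2 at -1.39, sca1 at -1.30, ngb at -1.11 and GPM4 at -1.09. All 9 genes were 2-fold or more lower, where 2.14% of all features were, and nothing is read from this count, since it restates the choice. In the deposited averages ngb lay at the limit with a ratio of 0.502, and KCNH2 followed at 0.457. Just outside were Z11545 at 0.512 and AY263353 at 0.537, taken among those of the 772 features not named with EL or EB that had a p under 0.05 by the methods' t-test. Of those 772 features, 8 met a ratio of 0.5 or less and that p-value, and these were the genes of the list other than ngb. Over all features 106 did. Within array set B, NOR replicate 3 was between 2.15-fold (PrRPR) and 4.26-fold (PRM1) below the CNT mean in 8 of the genes and 97.4-fold below it in TAC2. The folds of TAC2 against CNT rest on dim signals of the implanted animals and are not exact. With signals under 20 set to 20, the fold of NOR replicate 3 was 56.6, and those of all NOR and all DEX animals were 42.8 and 47.4.

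Whether the genes were also lower with the dexamethasone-eluting electrode was tested with limma over all features. TAC2, printed as beta preprotachykinin I, was again far lower than in CNT, by 48.5-fold. Also lower were the potassium channel gene KCNH2 by 2.62-fold, PRM1 by 2.74-fold, sperad-4 by 4.25-fold and sperad-7 by 2.61-fold. These 5 genes were called (adjusted p under 0.05 and 2-fold or more lower), against 0.821% of all features (109 of 13269). Among the 772 features not named with EL or EB, 11 (1.42%) were called, 5 of them members of the list. The CNT animals of this comparison are those that chose the genes, so that a high reading in them enters both comparisons. The median log2 fold change of the 9 genes was -1.39, against 0.01 over all features.

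TAC2 had a log2 fold change of -5.60 between DEX and CNT (SE 0.45, 95% interval -6.65 to -4.56, limma adjusted p = 0.00626), the lowest of all 13269 features. The next lowest was EL944591, which has no gene name here, at -2.86. For KCNH2 it was -1.39 (SE 0.19, 95% interval -1.83 to -0.94, adjusted p = 0.0146). The fold change of PRM1 was -1.46 (SE 0.28, interval -2.09 to -0.82, adjusted p = 0.0320). Sperad-4 reached -2.09 (SE 0.45, interval -3.13 to -1.05, adjusted p = 0.0422), the 24th lowest value of all features, and sperad-7 reached -1.39 (SE 0.26, interval -1.98 to -0.79, adjusted p = 0.0314). Neuroglobin was lower with an adjusted p of 0.0322 but by only 1.78-fold, at a log2 fold change of -0.83 (interval -1.20 to -0.47). Its limma adjusted p rose above 0.05 with median centring (0.0525) and with only the DEX and CNT animals fitted (0.0513). The same held without NOR replicate 2, DEX replicate 1, DEX replicate 2 or either CNT animal, with a highest value of 0.1715 without CNT replicate 2.

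The other 3 genes did not pass the test against CNT. Their log2 fold changes were -0.97 for sca1 (95% interval -1.61 to -0.32, limma adjusted p = 0.0862), -0.74 for PrRPR (interval -1.29 to -0.20, adjusted p = 0.106) and -0.66 for GPM4 (interval -1.38 to 0.06, adjusted p = 0.239). In all 9 genes every DEX animal was below both CNT animals, as in 22.5% of all features. This order is a description only, since the same CNT animals chose the genes for a high reading. Both also lay in array set B, and most DEX animals in set A. The gap was narrowest in sca1, where the lower CNT animal was 1.12-fold above the highest DEX animal, and in PrRPR at 1.196-fold.

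Across the limma settings, the call depended on single animals or on the processing for each called gene but TAC2. By the methods' t-test after Benjamini-Hochberg adjustment, 0 of the 9 genes were called, so that TAC2 lost its call there as well. Of the 5 calls, 1 remained without CNT replicate 1, without CNT replicate 2 or without DEX replicate 1, and 2 remained without DEX replicate 2 or without NOR replicate 2. TAC2 was called in all 18 alternative limma settings, with a log2 fold change between -6.19 and -5.20 and an adjusted p between 0.0001 and 0.0413. With an animal left out, the log2 fold change stayed between -1.58 and -1.20 in KCNH2, -1.78 and -1.13 in PRM1, -2.49 and -1.72 in sperad-4 and -1.67 and -1.11 in sperad-7, so that the calls were lost on the adjusted p and not on the 2-fold criterion. Sperad-4 also lost its call with median centring (limma adjusted p = 0.0529), sperad-4 and sperad-7 with only the DEX and CNT animals fitted (0.0550 and 0.0523), and both of these and PRM1 with the floor of 20 (0.0828, 0.0557 and 0.0580). Over the 18 settings the adjusted p of sperad-4 lay between 0.00161 and 0.223 and that of PRM1 between 0.00156 and 0.171. In array set B alone, DEX replicate 3 was 57.7-fold below the CNT mean in TAC2, 3.09-fold in PRM1, 2.45-fold in sperad-4 and 2.18-fold in KCNH2. The other 5 genes were less than 2-fold lower in this animal, from 1.22-fold in PrRPR to 1.85-fold in sperad-7. Thus 4 of the 9 genes were 2-fold or more lower in it, against 2.48% of all features. With the replicate number as a block, 205 features were called in place of 109, and sca1 was called as well (log2 fold change -1.15, limma adjusted p = 0.0245). This block put the CNT animals, of array set B, beside NOR and DEX replicates 1 and 2, of set A. Replicate 3 had no CNT animal, so that block and array set are mixed in these calls. Sca1 was also called with array weights (-1.13, limma adjusted p = 0.00306) and, in place of PRM1, without DEX replicate 3 (-1.26, limma adjusted p = 0.0223). With the array set in the model, however, sca1 was at -0.61 (limma adjusted p = 0.114) and was not called. PrRPR had a limma adjusted p under 0.05 with array weights (0.00509) and without DEX replicate 3 (0.0328), and GPM4 with array weights (0.0216). Each of these was less than 2-fold lower and so was not called.

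**Figure D2:**
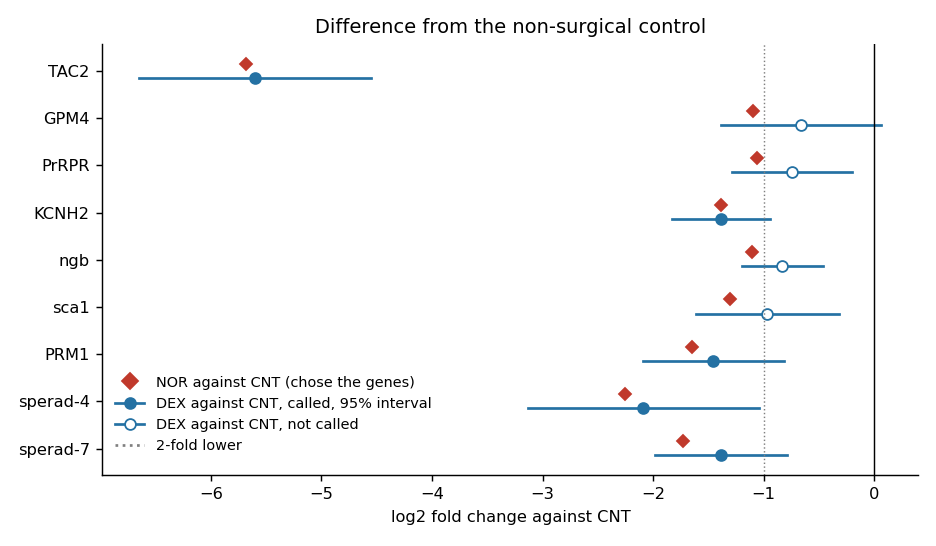
Log2 fold change of each gene against CNT, for NOR (diamonds, the values that chose the genes) and for DEX (circles with 95% limma intervals, filled where called). TAC2 lies at -5.68 and -5.60, and the other 8 genes lie between -2.26 and -0.66.

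The direct comparison of the electrodes asked whether dexamethasone brought these genes back toward the signal without surgery. Sca1, GPM4 and sperad-7 had fitted signals 1.26-fold, 1.35-fold and 1.27-fold higher in DEX than in NOR, and PrRPR followed at 1.24-fold and ngb at 1.21-fold. Thus 3 of 9 genes were 25% or more higher, against 3.40% of all features. There were 4 with ratios of linear averages, median centring or cyclic loess, 2 with a floor of 20 or without the 25% dimmest features, neither of which gives a value for GPM4, and 1 with array weights, which was sperad-4 and none of the 3. The NOR animals of this comparison are those that chose the genes for a low reading. None of them passed the test. At an adjusted p under 0.05 without a fold minimum, limma called 0% of the features between DEX and NOR (0 of 13269, with 329 at an unadjusted p under 0.05), 0 of the 9 genes had an unadjusted p under 0.05, and the adjusted p was 1.0 in each. The count of called features was 3 with array weights, and the methods' t-test gave 287 before and 0 after Benjamini-Hochberg adjustment.

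The 95% limma intervals show what difference the arrays allow. For TAC2 the log2 ratio of DEX to NOR was 0.08 (interval -0.85 to 1.01), which reached from 1.81-fold lower to 2.02-fold higher in signal. Its implanted animals were all among the dim features, and with a floor of 20 the log2 ratio was -0.15, so that this interval is one of signals and does not bound the difference in RNA. The same limit holds for GPM4, which exceeded only between 2.31% and 16.2% of all features in the implanted animals and shows no difference between them once the floor is set. The narrowest interval belonged to ngb, at 0.27 (-0.05 to 0.60). KCNH2 had a value of 0.00 (interval -0.40 to 0.40), sca1 0.33 (-0.24 to 0.91), PrRPR 0.31 (-0.18 to 0.80), GPM4 0.43 (-0.21 to 1.08) and sperad-7 0.35 (-0.19 to 0.88). PRM1 was at 0.19 (-0.37 to 0.76) and sperad-4 at 0.17 (-0.76 to 1.10). Each of these intervals held 0.

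The position of DEX between the other groups was also expressed as a share of the log2 distance from NOR to CNT. Both ends of this distance are the values that chose the genes, so that a low reading in NOR by itself raises the share, which is given as a description only. It was 1.41% in TAC2, -0.06% in KCNH2, 7.51% in sperad-4 and 11.8% in PRM1. The share was 20.01% in sperad-7, 24.7% in ngb, 25.7% in sca1, 29.5% in PrRPR and 39.7% in GPM4. The values of TAC2, GPM4 and PrRPR rest on dim signals. In the implanted animals PrRPR exceeded between 13.57% and 26.92% of all features, and PRM1 between 17.65% and 28.4%. With a floor of 20 the log2 ratio of DEX to NOR fell from 0.31 to 0.20 in PrRPR and stayed at 0.19 in PRM1. With an animal left out, the share ran from 16.3% (without NOR replicate 3) to 52.7% (without NOR replicate 1) in GPM4. It ran from -7.34% to 5.67% in TAC2, -9.49% to 12.2% in KCNH2, -1.84% to 20.9% in PRM1 and 16.1% to 37.3% in ngb. Without DEX replicate 3 it was 3.23% in sca1, 7.69% in PrRPR, 5.55% in sperad-7 and -10.1% in sperad-4, and without DEX replicate 2 it was 41.2%, 41.1%, 29.4% and 23.5% in these genes. Within set B, where 1 animal of each electrode is compared with both controls, the share was 74.4% in PrRPR, 67.3% in sca1 and 62.5% in GPM4, and between 11.4% (TAC2) and 49.0% (sperad-7) in the other 6 genes. The NOR and DEX animals overlapped in all 9 genes, and they did not overlap in 5.45% of all features.

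The values of DEX against NOR were also taken within each array set, and the difference between the sets was not tested. Within set A, with 2 animals per electrode, the log2 ratio of DEX to NOR lay between -0.26 (TAC2) and 0.14 (ngb), and 0 of the 9 genes were 25% or more higher. Within set B, with 1 animal per electrode, it lay between 0.30 (KCNH2) and 1.06 (GPM4), and 8 of the 9 genes were. The corresponding share of all features was 2.72% in set A, from means of 2 animals, and 14.6% in set B, from single animals. Between single animals of set A, 6.71% to 7.48% of all features and 0 to 2 of the 9 genes were 25% or more higher in DEX. The median of the 9 genes was 0.06 in set A and 0.76 in set B, with medians over all features of -0.003 and -0.006. DEX replicate 3 was the highest of the implanted animals in 6 of the 9 genes, against 20.3% of all features, and NOR replicate 3 was the lowest NOR animal in 5, against 38.3%. Without DEX replicate 3, 1 gene was 25% or more higher in DEX, against 6.12% of all features, and without DEX replicate 2 there were 6, against 4.63%. Without DEX replicate 1 there were 4, against 4.44%, and without NOR replicate 1, 2 or 3 there were 3 each, against 7.84%, 6.26% and 3.99% of all features, of which 1, 2 and 2 were among sca1, GPM4 and sperad-7. Set B held a single animal of each electrode, so that set and animal cannot be told apart.

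**Figure D3:**
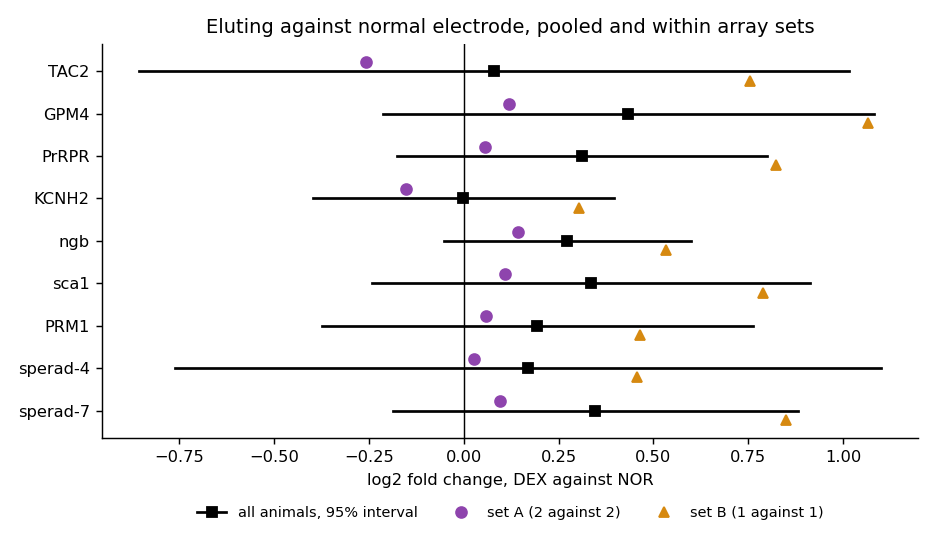
Log2 ratio of DEX to NOR for each gene, with black squares and 95% limma intervals for all 6 animals, circles for array set A (2 against 2 animals) and triangles for array set B (1 against 1). The circles lie between -0.26 and 0.14 and the triangles between 0.30 and 1.06.

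The 2 CNT animals differed from each other in most of these genes. The size of the log2 difference between them had a median of 0.14 over all features and exceeded this in 8 of the 9 genes. Sperad-4, PRM1, sperad-7 and sca1 were higher in CNT replicate 2, by 0.75, 0.65, 0.56 and 0.43, and TAC2, GPM4 and KCNH2 were lower in it by 0.55, 0.45 and 0.38. Only 1.77% of all features differed more than sperad-4 and 2.58% more than PRM1. The sperm genes were thus all higher in replicate 2, but so were sca1, ngb and PrRPR, while the tachykinin, muscarinic receptor and potassium channel genes were higher in replicate 1. These are differences between 2 single animals and were not tested. In PrRPR and ngb, the difference was 0.05 and 0.17.

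**Figure D4:**
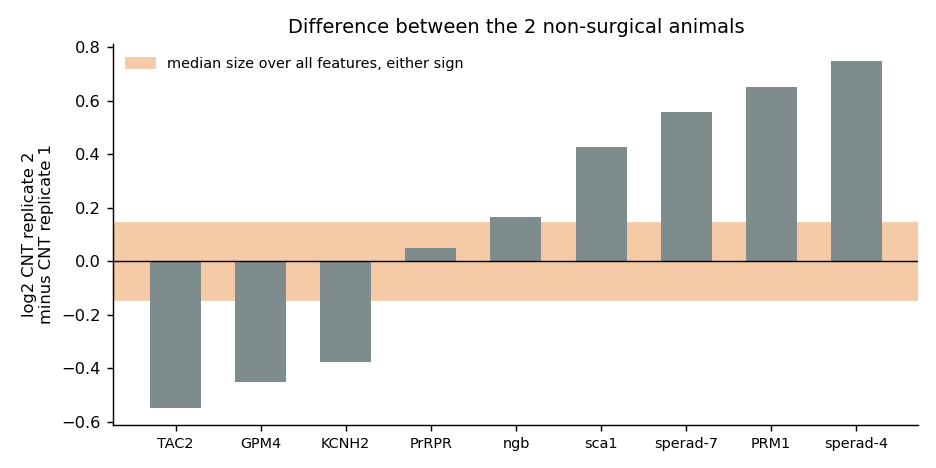
Log2 signal of CNT replicate 2 minus CNT replicate 1 for each gene (bars), with the median size of this difference over all features shaded on both sides of 0. The 3 sperm genes have the highest bars, from 0.56 to 0.75, and TAC2 has the lowest at -0.55.

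The likeness of the profiles was measured as the root mean square difference of log2 signals over the 8 arrays, after each feature was centred on its own mean. Among all features, the profile most like that of sperad-4 was sperad-7, at 0.41, followed by EL938862, also at 0.41. The log2 difference of sperad-4 minus sperad-7, which can be compared between groups but does not give their relative amounts, was 2.15 ± 0.13 (SD, n = 2) in CNT, 1.63 ± 0.46 (SD, n = 3) with the normal electrode and 1.45 ± 0.36 (SD, n = 3) with the eluting electrode. NOR replicate 3, at 2.14, lay between the CNT animals at 2.06 and 2.25, and DEX replicate 3 had the highest DEX value at 1.74. As transcripts of one name, both features may share sequence, and the probes were not compared here. Within the list the closest pair was ngb and PrRPR at 0.18, followed by sca1 and sperad-7 at 0.20. TAC2 had no close neighbor. The nearest feature was EL944591 at 1.26, with signals of 1224 and 536 in CNT and between 80.3 and 166 in the implanted animals, and the next was EL935814 at 1.44, against a root mean square of 2.49 for TAC2 about its own mean.

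All 5 leukocyte genes examined in the same cochleae were higher in DEX than in CNT, 4 of them at a limma adjusted p under 0.05. They came from the study's list of raised genes, and other leukocyte genes of that list, such as those of Fc-gamma receptors and CD1, were not included. In the study's printed averages, the Fc-gamma receptor genes, CD1-e and CD1-b4 were higher in DEX than in NOR, and CD1-b1 was slightly lower. The values below therefore do not stand for the leukocyte genes of that list as a whole. Of 6 genes looked up, 5 could be matched to 1 feature. They were CD8-alpha and CD8-beta of cytotoxic T cells, MHC class II of antigen-presenting cells, an integrin gene printed as CD18 and the phagocyte oxidase gene CYBA. CD18 is the symbol of the study, whose printed function is leukocyte adhesion glycoprotein Mo1-alpha. Symbol and function were not checked against each other, and the symbol is kept below only as a label. The study chose these 5 genes for a rise in NOR, so that this rise is no finding, and the same CNT animals enter the comparison with DEX. Their summed signal was 3681 and 3855 in the CNT animals, between 6630 and 9981 in NOR and between 6016 and 6567 in DEX, and none of the 5 genes was at 0. Between 91.0% and 95.4% of this sum came from CYBA and MHC class II, and CD18 differed from the other 4 genes in direction between DEX and NOR (log2 ratio 0.18, against -0.45 to -0.19), with a limma adjusted p of 1.0 in each. Against CNT, 4 of the 5 were higher in DEX at a limma adjusted p under 0.05, with log2 fold changes of 1.245 for CD8-alpha, 1.11 for CD18, 0.90 for CD8-beta and 0.80 for MHC class II, and CYBA was at 0.61 (adjusted p = 0.192). Within set B, DEX replicate 3 was above the CNT mean by 1.04 in CD8-alpha, 0.54 in CD18, 0.73 in CD8-beta, 0.78 in MHC class II and 0.84 in CYBA. Over all arrays, 2.47% of all features were higher in DEX than in CNT at a limma adjusted p under 0.05. The highest sum was that of NOR replicate 3, through CYBA (5134) and MHC class II (4390), while its CD18 signal (193) was the lowest of the NOR animals. This animal was the lowest of all for TAC2, GPM4, PRM1 and ngb but the highest of NOR for sca1 and sperad-4. The part of leukocyte RNA in the lower signals of the 9 genes was not tested.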

How the data were processed

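Total RNA of 8 cochleae was labeled with Cy3 and hybridized to 1-color NimbleGen arrays, scanned with an Agilent scanner and extracted with Feature Extraction software, and probes of a gene were taken as 1 gene. As deposited, each feature has a single intensity on a linear scale for each array. The submitters' processing notes name RMA (a background correction, quantile normalization and summary of probes), and the sources used here do not say over which arrays it ran. Values were log2-transformed and quantile-normalized across 8 arrays, because quartiles differed. A limma model with 3 groups and no covariate was fitted to all 13269 features, with Benjamini-Hochberg adjustment over all of them (prior degrees of freedom 2.92). R 4.3.3 with limma 3.58.1 and matplotlib 3.10.9 were used, and the fit was tried on simulated data. The simulated noise was independent between arrays and held no array sets. The planted changes were larger than those of most genes of the list. The simulation therefore does not show how the fit behaves where array set and CNT overlap. Exact permutation tests were not used, since they cannot go below 0.1 (two-sided) for 3 animals against 3 or 3 against 2.

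A feature was taken as a gene where its 3 group means lay within 0.5% of the printed ones, or within their last decimal. The members, the leukocyte list and the tests were chosen with earlier results of these data known. Besides members, features were named if just outside the choosing limit, if nearest in profile to TAC2 or sperad-4, or if on the leukocyte list. C3AR1 of the leukocyte list matched no single feature. Of the features, 0 were found by accession in the RefSeq gene table, and no sequences were used here. Array sets were formed by joining arrays with at least 150 exactly equal signal values.

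Same-numbered NOR and DEX animals had residuals that correlated across features at 0.221, 0.360 and 0.526. The residuals were taken from the group means, and the array set was not removed. Replicate 3 was the set B animal of both groups, so that array set and replicate number cannot be told apart in these correlations. Animals of different numbers were not compared. The numbers come from the labels, which name no shared litter or day, and the block is given as an alternative. Other alternatives were the scaling, a filter on dim features, a floor of 20, other variance models, array weights, fewer groups, the array set, the methods' t-test and leaving out each animal. Precision is limited by the number of arrays.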

Additional observations from a re-analysis of the deposited data

How the results depend on the processing

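TAC2 kept its direction and its call against CNT in all 18 alternative limma settings, and all 9 genes kept their direction in DEX against CNT. The 5 genes called there became 4 with median centring, 2 with a floor of 20, 3 with only the compared groups, 0 with the methods' t-test after Benjamini-Hochberg adjustment, and 1 to 5 with an animal left out. The 109 features called became 57 with the signals as deposited, 66 with the floor, 243 with array weights, 339 with the array set in the model, 205 with the replicate block, 1 with the t-test after adjustment, and 24 to 143 with an animal left out. Between DEX and NOR, 3 features were called with array weights and 287 by the unadjusted t-test, against 0. The count of 3 genes at least 25% higher in DEX was 1 with array weights (sperad-4, none of the 3), 2 with the floor or the filter on dim features, and 1 to 6 with an animal left out. The log2 ratio of DEX to NOR changed sign in TAC2 to -0.15 with the floor and -0.26 within set A, in KCNH2 to 0.041 with array weights and 0.30 within set B (the sets chosen after the values were seen), and in PrRPR to -0.034 with array weights. With an animal left out it ran from -0.38 to 0.34 in TAC2, -0.13 to 0.17 in KCNH2, -0.23 to 0.53 in sperad-4 and -0.026 to 0.39 in PRM1. The causes were not tested. GPM4 has no value of DEX against NOR with the floor, as all 6 animals are then equal, and the filter on dim features removed GPM4 and PrRPR. The replicate block changed no call among the 9 genes other than sca1. A dim feature gives little room for a fall, which limits GPM4 and PrRPR most, and a ratio between the implanted groups in TAC2, GPM4 and PrRPR.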
